A study of Mus musculus with 2 samples.

Results

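The genes described here make and remove reactive oxygen species. They are 34 genes chosen by name from the deposited gene lists and joined between the libraries by Ensembl identifier, out of 29413 genes that both libraries list. They fall into 4 NADPH oxidase genes (Cybb, Cyba, Ncf1 and Ncf4), 4 genes of NADPH supply (G6pdx, Pgd, Taldo1 and Tkt) and 26 antioxidant genes. All 34 had at least 1 UMI (unique molecular identifier, which counts 1 captured RNA molecule) in each library, and 33 reached the minimum of 20 UMIs. Nqo1, an NADPH-dependent quinone reductase, had 7 UMIs in the distal and 9 in the niche cells and was not tested.

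Phagocytes carry an NADPH oxidase whose membrane part is the pair of proteins made from Cybb (the catalytic subunit gp91phox) and Cyba (its partner p22phox). Cytosolic subunits, among them those of Ncf1 (p47phox) and Ncf4 (p40phox), join it on activation, and the complex then turns oxygen into superoxide at the expense of NADPH. NADPH is regenerated in the pentose phosphate pathway: G6pdx and Pgd encode its dehydrogenases, and Taldo1 and Tkt the sugar-transferring enzymes of its second branch. The antioxidant genes encode enzymes that remove superoxide (Sod1, Sod2) and peroxides (Cat, glutathione peroxidases, peroxiredoxins), the makers and users of glutathione, the thioredoxin system, the metal-binding metallothioneins Mt1 and Mt2, and the transcription factor NRF2 (Nfe2l2) with its inhibitor Keap1. In the lung, resident alveolar macrophages meet air and surfactant, whereas monocytes and neutrophils arrive from blood.

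Immune cells were sorted from metastatic lungs of female Balb/c mice, taken 7 days after labelling-4T1 cells had been given by vein. 4T1 cells come from a mouse mammary carcinoma and form tumours in lung. There was 1 library of distal lung immune cells and 1 of niche immune cells, both from injected mice, with no uninjected lung, and the sources used here do not give the sort gates or the number of mice. The distal library held 3945 barcodes with 22323465 UMIs and the niche library 3242 with 38036915. After filtering, 3536 and 3080 cells remained, with medians of 5789.5 and 11192.5 UMIs, and the libraries shared 4 barcodes. Ptprc, the pan-leukocyte gene, had a UMI in 87.2% of distal and 85.7% of niche cells, shares that also depend on depth. Against the label of immune cells, 126 distal and 36 niche cells formed a class called stromal-like. That class is led by endothelial genes such as Cldn5 and Ramp2 and also carries alveolar epithelial markers, which sum to 74561 CPM in its distal cells, beside 3640 for endothelial and 630 for fibroblast markers. Each group is a single library, so conditions were not tested. The location of the cells, the software version, the gene annotation and the depth cannot be told apart. All intervals below are exact 95% intervals that cover counting error only.

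Classes are named from marker genes, none of which is one of the 34, and end in "-like" because they come from clusters of these cells. In the distal library the classes with at least 50 cells were alveolar macrophage-like (1113 cells), T cell-like (369), neutrophil-like (362), monocyte/macrophage-like (332), blood monocyte-like (267), B cell-like (199), conventional dendritic-like (143), stromal-like (126), interstitial macrophage-like (122) and migratory dendritic-like cells (55). The niche library held 1784 monocyte/macrophage-like, 129 interstitial macrophage-like and 64 migratory dendritic-like cells, and fewer than 50 of each other class of this list, with 10 alveolar macrophage-like and 29 neutrophil-like cells. The libraries were therefore compared in 3 classes. Levels are UMIs of a gene per 1000000 UMIs of the class (CPM). For the genes described here, levels are set side by side only within a gene.

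Promoters are shown for 5 genes that hold the antioxidant response core, chosen for that match among those whose level differed between the libraries in interstitial macrophage-like cells, described further on, and for Mt1 as the neighbour of Mt2. Each is the 250 bases before the annotated start, 5′ to 3′ on the gene's strand, from RefSeq on GRCm38.p6. Of the 34 genes, 30 had a promoter in the table. In the first 4, capitals mark the core of the antioxidant response element that NRF2 binds, searched as TGACNNNGC on both strands. These letters can overlap TGACTCA, the site of AP-1 factors.

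Nfe2l2: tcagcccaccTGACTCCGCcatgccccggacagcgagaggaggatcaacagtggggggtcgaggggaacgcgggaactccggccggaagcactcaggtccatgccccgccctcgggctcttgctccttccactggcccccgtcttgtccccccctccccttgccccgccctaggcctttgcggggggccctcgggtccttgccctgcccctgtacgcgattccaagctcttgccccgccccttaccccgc

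Txnrd1: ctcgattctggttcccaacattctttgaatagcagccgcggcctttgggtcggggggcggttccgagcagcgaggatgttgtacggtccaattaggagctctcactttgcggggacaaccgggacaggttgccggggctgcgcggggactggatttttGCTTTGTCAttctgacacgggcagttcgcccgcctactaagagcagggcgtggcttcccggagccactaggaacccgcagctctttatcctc

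Prdx1: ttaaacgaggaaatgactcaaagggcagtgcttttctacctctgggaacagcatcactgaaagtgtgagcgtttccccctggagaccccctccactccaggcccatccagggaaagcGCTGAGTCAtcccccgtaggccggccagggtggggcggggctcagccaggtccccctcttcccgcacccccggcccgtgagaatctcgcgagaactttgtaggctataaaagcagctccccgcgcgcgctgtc

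Mgst1: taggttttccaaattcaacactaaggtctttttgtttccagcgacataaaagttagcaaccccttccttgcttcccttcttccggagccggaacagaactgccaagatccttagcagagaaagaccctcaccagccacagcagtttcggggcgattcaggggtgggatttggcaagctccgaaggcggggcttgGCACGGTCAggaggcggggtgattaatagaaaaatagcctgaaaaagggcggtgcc

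These are chr2:75704664-75704913 on the minus strand, and chr10:82858956-82859205, chr4:116685349-116685598 and chr6:138140277-138140526 on the plus strand. The Txnrd1 window is the only one of the 3 listed for that gene that holds the letters. The core was present in 8 of the 30 genes (G6pdx, Gclm, Mgst1, Mt2, Nfe2l2, Prdx1, Sod1 and Txnrd1) and in 11.5% of all 27025 genes in the table. In the next pair, capitals mark the core of the metal response element, searched as TGCACNC or TGCGCNC on both strands.

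Mt2: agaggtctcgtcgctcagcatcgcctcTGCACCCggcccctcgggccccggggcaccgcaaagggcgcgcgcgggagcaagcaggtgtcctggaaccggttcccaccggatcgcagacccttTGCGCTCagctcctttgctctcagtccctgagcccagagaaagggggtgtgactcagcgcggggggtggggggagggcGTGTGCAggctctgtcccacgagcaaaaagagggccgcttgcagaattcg

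Mt1: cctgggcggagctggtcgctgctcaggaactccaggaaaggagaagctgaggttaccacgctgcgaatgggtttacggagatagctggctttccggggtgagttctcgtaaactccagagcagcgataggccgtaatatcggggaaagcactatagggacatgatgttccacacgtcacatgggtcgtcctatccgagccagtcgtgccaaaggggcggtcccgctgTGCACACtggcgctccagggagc

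These are chr8:94172368-94172617 and chr8:94178839-94179088, both on the plus strand. The Mt2 window holds 3 matches and the Mt1 window 1, nearest to its start. Bases outside the windows, among them those after the annotated start, were not searched. The matches are therefore not a count of the metal response elements of either gene. The letters occur in 8 of the 30 genes and in 23.8% of all genes, so a match is common, and a match is a description of letters and not of a bound factor.

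Across the cell classes of the distal library, each oxidase gene had its own order of levels, and the 4 did not peak in the same cells. Of the 33 genes tested, 6 had their highest class at least 2-fold above the next (18.2%), beside 21.1% of all 11734 genes with as many UMIs: Cybb, Taldo1, Slc7a11, Gclc, Srxn1 and Gstm1. The share was near that of all genes. Neutrophil-like cells were the highest class for 7 (9.66% of all genes had their highest level there), alveolar macrophage-like cells for 6 (15.7%) and stromal-like cells for 6 (22% of all genes).

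**Figure D1:**
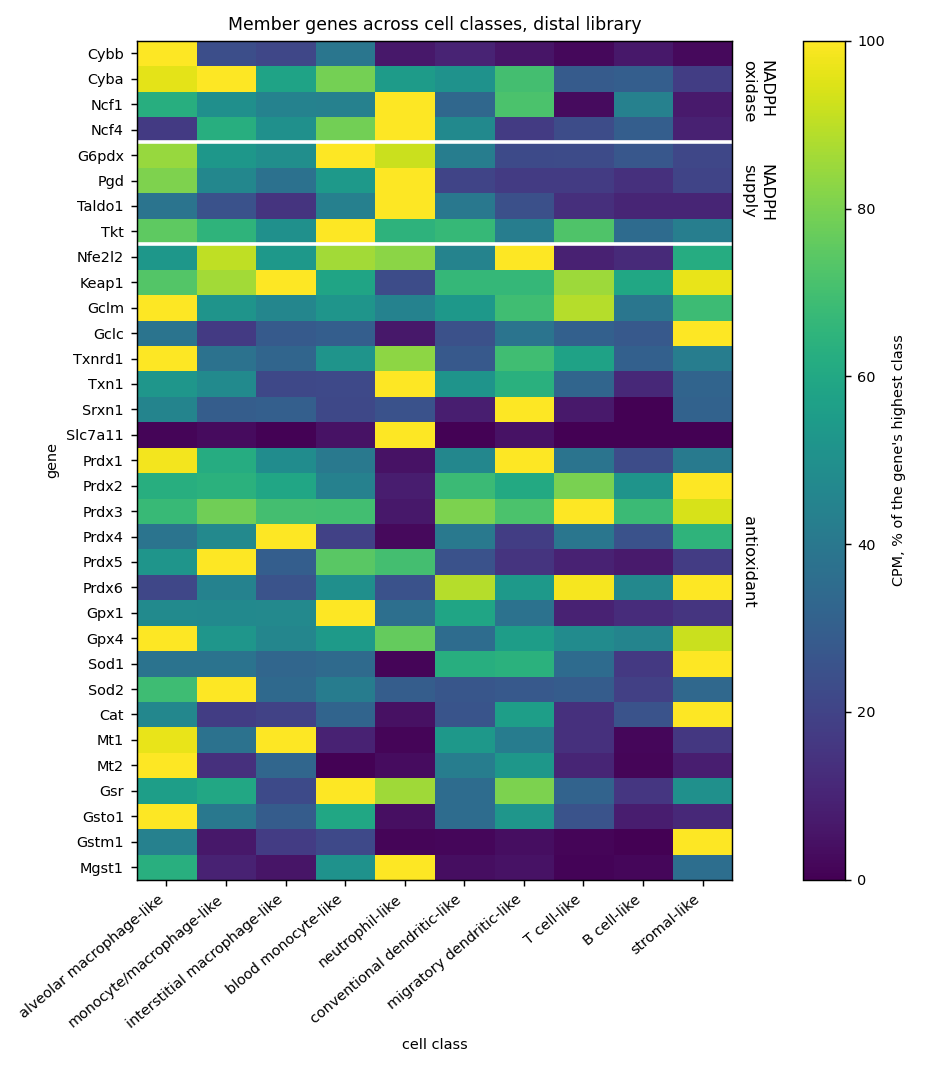
Each row is 1 of the 33 genes tested and each column a cell class of the distal library. The colour is the level in CPM as a percentage of the gene's highest class. Slc7a11 is highest in the neutrophil-like column, and Cybb in the alveolar macrophage-like column, where its level is 2.54 times that of the next class.

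Cybb, the catalytic subunit, was at 3758 CPM (interval 3716 to 3800) in alveolar macrophage-like cells. It was at 1479 CPM in blood monocyte-like, 902 in monocyte/macrophage-like and 795 (734 to 861) in interstitial macrophage-like cells. Lower levels were found in conventional dendritic-like (367), neutrophil-like (242), B cell-like (237) and migratory dendritic-like cells (212), and the intervals of those last 3 classes overlap. T cell-like cells (80.5) and stromal-like cells (91.5) had the lowest Cybb levels, with overlapping intervals. With each cell thinned to 1000 UMIs, 94.4% of alveolar macrophage-like cells had a Cybb UMI, and unthinned 99.7%. In neutrophil-like cells the Cybb share was 7.37% (4.27 to 11.7) after thinning and 9.94% before. That lies beside 4.66% in T cell-like and 6.73% in stromal-like cells after thinning. Its interval overlaps theirs (2.74 to 7.35 and 2.75 to 13.4), so no order is read from the share. The Cybb level was 242 CPM in neutrophil-like cells, 80.5 in T cell-like and 91.5 in stromal-like cells. The 113 Cybb UMIs of neutrophil-like cells lay in the 9.94% of them that had any, so their level came from a minority of cells. The median depth was 1066 UMIs in neutrophil-like, 7115 in alveolar macrophage-like, 2815 in T cell-like and 2770.5 in stromal-like cells, and thinning left out 145 of the 362 neutrophil-like cells.

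Cyba, which stabilises the catalytic subunit, was spread more evenly. Its levels were 2381 CPM in monocyte/macrophage-like, 2284 in alveolar macrophage-like and 1882 in blood monocyte-like cells, and 1310 in neutrophil-like cells. Its lowest level was 434 CPM in stromal-like cells, 5.48-fold below the highest. Thinned to 1000 UMIs, a Cyba UMI was seen in 85.4% of alveolar macrophage-like and 69.1% of neutrophil-like cells, beside 27.9% of stromal-like cells.

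The cytosolic subunits were highest in neutrophil-like cells. Ncf1, the organiser subunit, was at 321 CPM (272 to 377) there, at 230 (184 to 283) in migratory dendritic-like and at 202 in alveolar macrophage-like cells, and the first pair of intervals overlap. Ncf4 was at 687 CPM (614 to 766) in neutrophil-like and 541 (498 to 586) in blood monocyte-like cells, but at 116 (109 to 124) in alveolar macrophage-like cells. In alveolar macrophage-like cells, Ncf4 was thus 5.91-fold below neutrophil-like cells while Cybb was 15.5-fold above them. After thinning, an Ncf1 UMI was seen in 24.4% of neutrophil-like and 17.7% of alveolar macrophage-like cells, beside 1.64% of T cell-like cells. For Ncf4 these shares were 46.1% and 10.2%, beside 9.86% of T cell-like and 3.85% of stromal-like cells. The alveolar macrophage-like share of Ncf4 therefore lies at the T cell-like share, whereas unthinned 50% of those cells had an Ncf4 UMI.

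**Figure D2:**
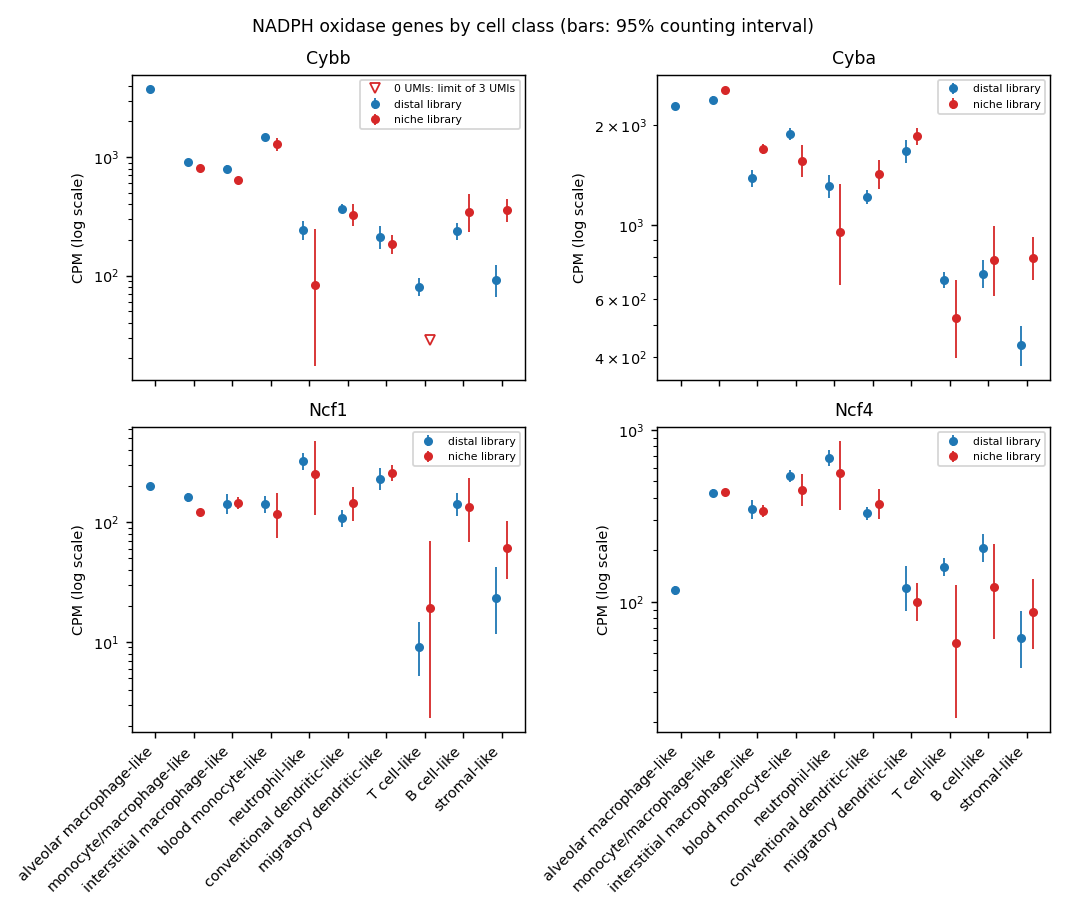
Levels of the 4 NADPH oxidase genes in CPM, on log axes, in 10 cell classes of the distal (blue) and niche (red) libraries, with bars for the 95% counting interval. Niche values are drawn for classes with at least 20 cells, and a triangle marks the level that 3 UMIs would give where none was seen. Cybb is highest in distal alveolar macrophage-like cells, where Ncf4 is among the lower values.

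Taldo1 and Pgd, of the NADPH supply genes, were highest in neutrophil-like cells, and G6pdx and Tkt in blood monocyte-like cells. Taldo1, the transaldolase, was at 1995 CPM (1869 to 2127) in neutrophil-like cells, 2.29-fold above blood monocyte-like cells at 871, and at 209 in stromal-like cells. Pgd was at 240 CPM (197 to 288) in neutrophil-like cells and 194 (184 to 204) in alveolar macrophage-like cells, with overlapping intervals. G6pdx, the entry enzyme, was at 69.9 CPM in blood monocyte-like, 64.2 in neutrophil-like and 59.0 in alveolar macrophage-like cells, and these intervals overlap as well. Tkt was highest in blood monocyte-like cells at 327 CPM and varied least of the 4, down to 114 in B cell-like cells. All 4 supply genes were higher by at least 1.5-fold in alveolar macrophage-like than in interstitial macrophage-like cells, and most of all Taldo1, at 2.56-fold (24.3% of all 9930 genes tested were higher in this pair).

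Among antioxidant genes the sharpest class difference was that of Slc7a11, the cystine importer that feeds glutathione synthesis. Neutrophil-like cells held 241 Slc7a11 UMIs, 516 CPM (453 to 585), and 43.6% of them had at least 1. The next class, migratory dendritic-like cells, was at 26.1 CPM, an 18.8-fold difference, and no UMI was seen in T cell-like, B cell-like or stromal-like cells, where 3 UMIs would be 1.70, 5.18 and 6.39 CPM. After thinning 36.4% of neutrophil-like cells had a Slc7a11 UMI and 0.631% of alveolar macrophage-like cells. The 29 niche neutrophil-like cells held 14 Slc7a11 UMIs, 392 CPM. Gclc, the catalytic subunit of the ligase that starts glutathione synthesis, had 2 UMIs in the distal neutrophil-like cells (4.28 CPM) and was highest in stromal-like cells at 68.1 CPM (46.6 to 96.2).

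Neutrophil-like cells stood at both ends of the range. They had the highest levels of Txn1, the cytosolic thioredoxin (2232 CPM, beside 1175 in alveolar macrophage-like cells), and of Mgst1, a membrane-bound glutathione transferase (766 beside 485). They were also the lowest class for 10 of the 33 genes, 30.3%, which is near the 33.2% of all genes lowest there. Prdx1, a cytosolic peroxiredoxin, was at 87.7 CPM in them and at 1748 and 1721 CPM in migratory dendritic-like and alveolar macrophage-like cells. Sod1, the cytosolic superoxide dismutase, had 1 UMI in neutrophil-like cells (2.14 CPM) and was at 147 CPM in stromal-like cells. Between alveolar macrophage-like and neutrophil-like cells, 16 of 33 genes were at least 1.5-fold higher in the former (42.9% of all 9821 genes tested were) and 8 in the latter (11.9%). Between neutrophil-like and blood monocyte-like cells, 7 of 31 were higher in neutrophil-like cells (13.4%) and 15 in blood monocyte-like cells (46%).

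Among the 3 macrophage classes, some genes differed by at least 1.5-fold in each pair, among them Mt2, Gstm1 and Mgst1. Others did so in none, among them Gpx1. Mt1 was at 1270 CPM (1192 to 1351) in interstitial macrophage-like and 1226 (1202 to 1250) in alveolar macrophage-like cells, at 481 in monocyte/macrophage-like cells and at 15.0 in neutrophil-like cells. Its neighbour Mt2 was highest in alveolar macrophage-like cells at 128 CPM, was at 42.2 in interstitial macrophage-like cells, and had 1 UMI in blood monocyte-like cells. Prdx5, a peroxiredoxin of several compartments, and Sod2, the mitochondrial superoxide dismutase, were highest in monocyte/macrophage-like cells, at 1782 and 364 CPM. Gpx1, the main glutathione peroxidase of the cytosol, was highest in blood monocyte-like cells at 2643 CPM, and between 1244 and 1268 CPM in the 3 macrophage classes. Alveolar macrophage-like cells were higher by at least 1.5-fold than interstitial macrophage-like cells for 19 of 33 genes (24.3% of all genes) and lower for 2 (11%). Against monocyte/macrophage-like cells 16 were higher (32.1%) and 5 lower (13.3%). Interstitial macrophage-like cells were higher than monocyte/macrophage-like cells for 4 genes (9.25%) and lower for 10 (8.85%).

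Other antioxidant genes peaked outside these cells. Gstm1, a cytosolic glutathione transferase from a family of similar genes, was at 275 CPM (229 to 326) in stromal-like cells and 120 in alveolar macrophage-like cells, with none seen in B cell-like cells. Srxn1, which restores overoxidised peroxiredoxins, was at 34.0 CPM in migratory dendritic-like cells, from 13 UMIs, and at 15.3 in alveolar macrophage-like cells. Cat, the peroxisomal catalase, was highest in stromal-like cells at 149 CPM. Nfe2l2 ranged from 24.9 CPM in T cell-like cells to 272 in migratory dendritic-like cells, and Keap1 from 12.8 in neutrophil-like to 55.0 in interstitial macrophage-like cells.

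The first comparison between the libraries asked whether these genes differed between monocyte/macrophage-like cells of the niche and of the distal lung, 1784 and 332 cells. Of the 33 genes, 1 was higher and 1 was lower by at least 1.5-fold with an interval that left out no change, beside 3.69% higher and 6.14% lower of all 10983 genes tested. The higher gene was Mt2, at 27.2 CPM in the niche and 17.8 in the distal library (0.60 as log2 ratio, interval 0.19 to 1.07). The lower gene was Gstm1, with 244 niche and 49 distal UMIs (-0.74 as log2 ratio, -1.18 to -0.25). After thinning to 1000 UMIs neither met both conditions. The Mt2 ratio was 0.07, and that of Gstm1 was -1.08, past 1.5-fold but with an interval that included no change. At a clustering resolution of 0.6 the Mt2 ratio was 0.43, and in the largest cluster that of Gstm1 was -0.17. Over 13 alternatives the Mt2 ratio ran from 0.07 to 1.97, the highest with at least 500 genes per cell, and that of Gstm1 from -1.55 to -0.17. Of the 33 ratios 22 were above 0, beside 47% of all genes, and the median was 0.07 over the 33 and -0.02 over all genes.

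Over the whole monocyte/macrophage-like class no oxidase gene was past 1.5-fold, and their median log2 ratio was -0.07. Within single clusters Ncf1 was past it in the largest, cluster 1 (-0.59, -0.83 to -0.34), and in cluster 7 (-0.87, -1.21 to -0.49). Ncf4 was past it in the other direction in cluster 23 (0.64, 0.09 to 1.18), which held 14 distal and 6 niche cells. Over the whole class Cybb was at 813 CPM in the niche and 902 in the distal library (-0.15), Cyba at 2560 and 2381 (0.10) and Ncf4 at 433 and 430 (0.01, interval -0.08 to 0.10). Ncf1 was the lowest of the 4, at 120 and 161 CPM, a log2 ratio of -0.42 (-0.56 to -0.27). Cyba was the highest. The summed level of 8 neutrophil markers in this class was 59.2 CPM in the niche and 221 in the distal library, with Ly6g at 0 in the latter, and that of 7 classical monocyte markers 1464 and 2154, and their part in these ratios was not tested.

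No NADPH supply gene was past 1.5-fold between the libraries over these cells. The highest ratio was that of Tkt, at 227 CPM in the niche and 214 in the distal library (0.09, interval -0.04 to 0.22). The lowest was that of Taldo1, at 473 and 505 CPM (-0.10, interval -0.18 to -0.01). Pgd and G6pdx lay between them, at 0.06 and -0.06. Within single clusters of the class, Tkt was past 1.5-fold in cluster 14 (-0.60, -1.04 to -0.11) and Taldo1 in cluster 23 (-0.81, -1.65 to -0.11). Pgd was past it in the other direction in cluster 23 (1.14, 0.02 to 2.25), from 15 niche and 16 distal UMIs. In cluster 7 Taldo1 was at -0.41 (-0.62 to -0.20), not past it. Of 11 further supply genes with enough UMIs, none was past the threshold.

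The 25 antioxidant genes had a median log2 ratio of 0.10 in these cells, with 18 above 0. The 35 further antioxidant genes with enough UMIs had a median of -0.12, with 12 above 0. Sod2 was at 531 CPM in the niche and 364 in the distal library (0.54, interval 0.45 to 0.64), just under the threshold of 1.5-fold. It passed at a clustering resolution of 1.5 (0.66), as a mean over cells (0.64) and with at least 500 genes per cell (0.63). Txnrd1, the reductase that recharges thioredoxin, had a log2 ratio of 0.46 (0.16 to 0.79). Gpx4, which reduces lipid peroxides, was at 236 and 325 CPM (-0.46, interval -0.57 to -0.36), Mgst1 at -0.52 and Gpx1 at -0.33. Of those 35 none was higher past the threshold and 2 were lower: Gpx3, a secreted glutathione peroxidase (-0.71), and Gstt1, a glutathione transferase (-0.70).

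**Figure D3:**
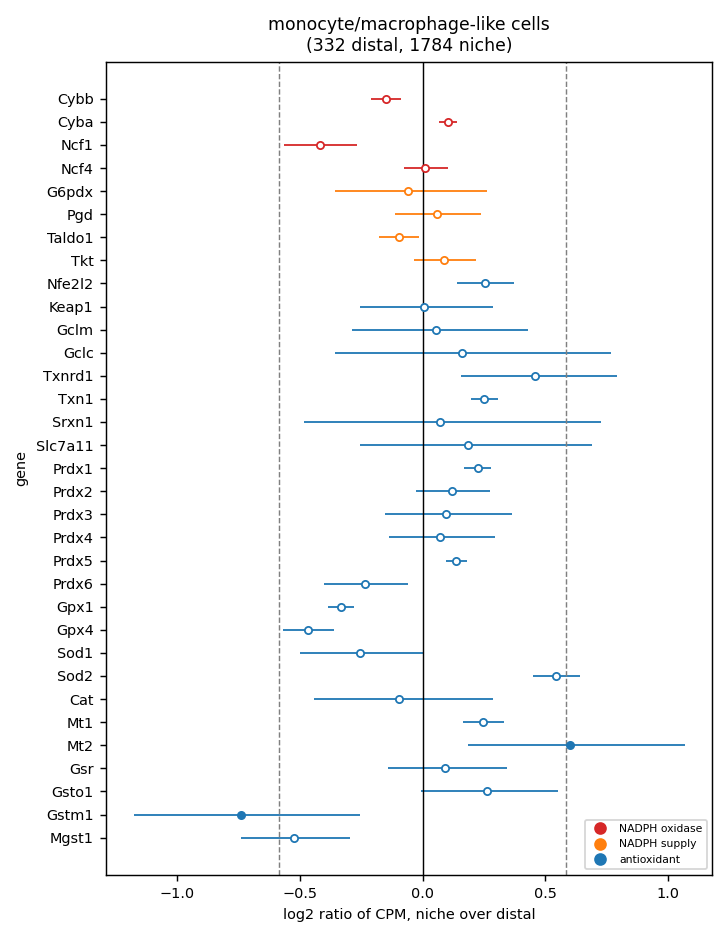
Log2 ratio of CPM, niche over distal, of 33 genes in monocyte/macrophage-like cells, with the 95% counting interval. Filled points pass the threshold, the dashed lines mark 1.5-fold, and colours give the 3 groups. Mt2 and Gstm1 are the filled points, and the oxidase and supply genes lie between -0.42 and 0.10.

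This class joins 5 clusters, and they were not equally frequent in the libraries. Cluster 1, led by genes such as Cfb and Ly6c2, held 49.7% of this class in the niche library and 29.5% in the distal one, and cluster 2, led by genes such as Cd63 and Apoe, 30.1% and 44.3%. Cluster 7 (leading gene Fn1) held 13.1% and 14.8%, cluster 14 (Rsad2 and Ifit genes) 6.78% and 7.23%, and cluster 23 (Saa3) 0.336% and 4.22%. Within clusters the niche over distal ratio of Sod2 was 0.32 in cluster 1, 0.94 in cluster 2 and 1.06 in cluster 23. It was 0.18 (-0.12 to 0.49) in cluster 7 and 0.10 (-0.20 to 0.42) in cluster 14, where the intervals included 0. The ratio of Mt2 did not have 1 direction: it was 1.37 (0.00 to 3.89) in cluster 1, from 115 niche and 3 distal UMIs, so that it reached the minimum of UMIs through the niche library, and 1.69 (1.05 to 2.50) in cluster 2, but -1.24 (-1.85 to -0.53) in cluster 7, where Mt2 was at 29.7 CPM in the niche and 68.9 in the distal library. Mt1 was higher in the niche in each of the 5, from 0.22 in cluster 7 to 1.12 in cluster 14. Gpx4 was lower in the niche in each, from -0.11 (-0.57 to 0.42) in cluster 14 to -1.23 in cluster 23, which held 14 distal and 6 niche cells. Ncf1 was lower in clusters 1 (-0.59) and 7 (-0.87), and its intervals in the other 3 included 0. Gstm1 was past 1.5-fold only in cluster 7 (-1.71, -2.66 to -0.59), from 34 niche and 12 distal UMIs. Its ratios in clusters 1 (-0.17, -1.12 to 1.16) and 2 (-0.46, -1.09 to 0.29) had intervals that included 0. In clusters 14 and 23 Gstm1 had fewer than 20 UMIs.

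**Figure D4:**
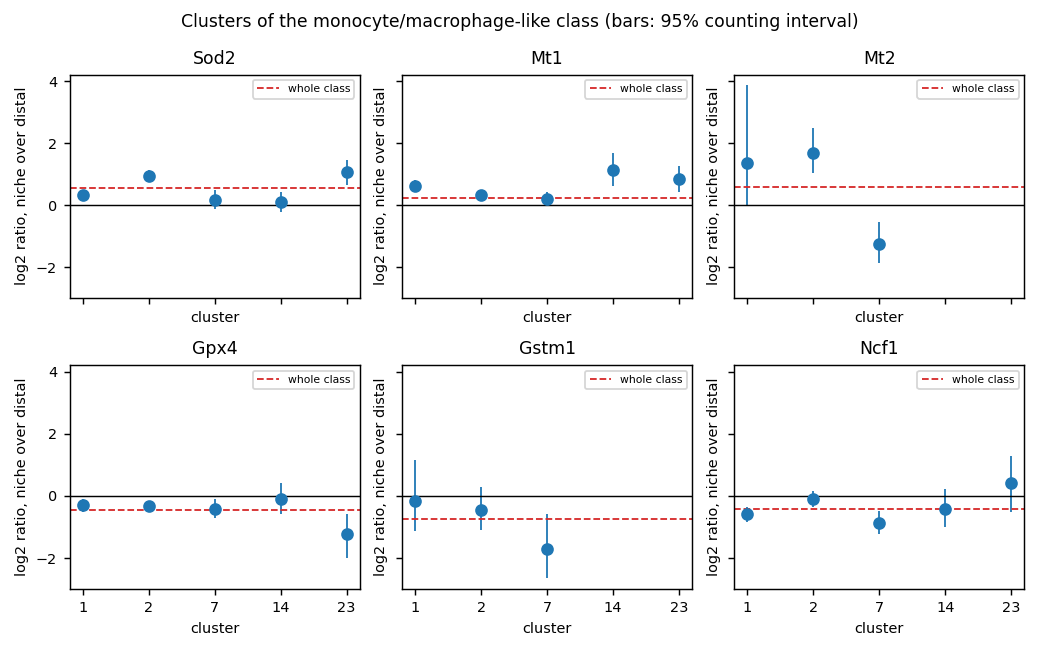
Log2 ratio of CPM, niche over distal, of 6 genes in each of the 5 clusters of the monocyte/macrophage-like class, with the 95% counting interval and, dashed, the ratio in the whole class. Clusters in which a gene had fewer than 20 UMIs are left out. Mt2 is above 0 in clusters 1 and 2 and below 0 in cluster 7.

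In interstitial macrophage-like cells, 122 distal and 129 niche, more antioxidant genes differed between the libraries. Of 33 genes 10 were higher in the niche library, beside 10.3% of all 8019 genes tested, and 2 were lower, beside 7.1%. All 12 were antioxidant genes, and the median log2 ratio of the 25 antioxidant genes was 0.37, beside 0.07 for all genes. The 31 further antioxidant genes tested in this class had a median of 0.01, with 16 above 0. Among the genes with at least 100 UMIs in this class the median ratio was 0.14, and relative to it 8 of the 10 passed, with Prdx1 at 0.44 and Gsto1 at 0.60 (-0.01 to 1.32) not among them. The count of 10 moved with the settings: 3 genes were higher with at most 5% mitochondrial UMIs (111 distal and 87 niche cells), 5 with at least 500 genes per cell (130 and 95 cells) and 5 after thinning. A clustering resolution of 0.6 gave no such class. Median depth was 5702 UMIs in the distal and 13344 in the niche cells of the class, the summed level of 5 cycling genes 87.0 and 188 CPM, and that of 10 alveolar macrophage markers 318 and 122 CPM, and their part in the ratios was not tested. The 9 interstitial macrophage markers summed to 20683 and 17613 CPM, with none at 0.

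The 10 higher genes were Nfe2l2, Txn1, Txnrd1, Prdx1, Prdx5, Sod2, Gsr, Gsto1, Mt2 and Slc7a11. Nfe2l2, the regulator, was at 247 CPM in the niche and 144 in the distal library (0.77, interval 0.47 to 1.08). Txn1 was at 873 and 480 CPM (0.86, 0.70 to 1.03), and its reductase Txnrd1 at 59.1 and 29.4 (0.98, 0.35 to 1.72). Prdx5 was at 920 and 533 CPM (0.78), Prdx1 at 1278 and 850 (0.59, 0.46 to 0.71), and Sod2 at 238 and 124 (0.94, 0.62 to 1.27). Prdx1 lies at the threshold of 1.5-fold and was past it under 4 of 10 alternatives. Gsr, which regenerates reduced glutathione, was at 47.1 and 21.7 CPM (1.08), Gsto1, an omega-class glutathione transferase, at 54.6 and 32.0 (0.75), and Mt2 at 75.4 and 42.2 (0.82). Slc7a11 had the highest ratio, 2.09 (0.64 to 4.64), from 38 niche and 3 distal UMIs, and it reached the minimum of 20 UMIs through the niche library. With at most 5% mitochondrial UMIs 6 of the 10 were under the threshold: Txnrd1 (0.30), Prdx1 (0.38), Gsr (0.44), Gsto1 (0.45), Txn1 (0.46) and Prdx5 (0.53). Gsto1 was past the threshold with an interval that left out 0 under 5 of 9 alternatives and Prdx1 under 4 of 10. Nfe2l2 was under 1.5-fold as a mean over cells, and Mt2 with at least 500 genes per cell. Sod2 after thinning and Slc7a11 without the highest 5% of doublet scores stayed past 1.5-fold, but with intervals that included no change. Their lowest ratios over all alternatives were 0.73 and 1.48.

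The lower genes were both glutathione transferases. Gstm1 was at 16.9 CPM in the niche and 48.6 in the distal library (-1.52, -2.24 to -0.82), and Mgst1 at 23.3 and 44.8 (-0.95, -1.60 to -0.27). Gstm1 was past the threshold with an interval that left out 0 under all 8 alternatives that gave a value, and Mgst1 under 4 of 8. The Mgst1 ratios ran from -1.09 to -0.04. Of the 12 genes past the threshold 11 had a promoter in the table. The antioxidant response core was in 5 of them (Nfe2l2, Txnrd1, Prdx1 and Mt2, higher in the niche, and Mgst1, lower), and it was not in the other 6 (Txn1, Prdx5, Sod2, Slc7a11, Gsto1 and Gstm1). Mt1 was at 1142 and 1270 CPM (-0.15), so Mt1 and Mt2 had ratios of unlike sign.

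The other groups showed no gene past the threshold in this class. Cybb was at 637 CPM in the niche and 795 in the distal library (-0.32, -0.46 to -0.18) and Cyba at 1696 and 1383 (0.29, 0.20 to 0.40), the lowest and highest oxidase genes, while Ncf1 and Ncf4 were at 0.03 and -0.03. The median of the 4 supply genes was 0.40, with Taldo1 highest at 0.42 (0.21 to 0.63) and G6pdx lowest at -0.20 (-0.87 to 0.52). Of the further pathway genes tested, 2 of 9 supply genes were higher and 0 lower, and 4 of 31 antioxidant genes were higher and 3 lower, beside 10.3% and 7.1% of all genes, so the antioxidant counts are near those of all genes. The higher supply genes were Mthfd1 (2.13, from 39 niche and 3 distal UMIs, so that it reached the minimum through the niche library) and Mthfd2 (0.82), both enzymes of folate metabolism. The higher antioxidant genes were Hmox1, the haem-degrading oxygenase, at 163 and 85.7 CPM (0.92), Msrb1 (0.77), Txn2 (0.67) and Glrx (0.67). The lower ones were Selenop, a secreted selenoprotein, at 826 and 1760 CPM (-1.09), Mgst3 (-1.05) and Txnip, an inhibitor of thioredoxin (-0.95).

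In migratory dendritic-like cells, 55 distal and 64 niche, 30 genes had enough UMIs. Of these 3 were higher in the niche library, beside 6.88% of all 4663 genes tested, and 2 were lower, beside 4.4%. The higher genes were Prdx4, a peroxiredoxin of the endoplasmic reticulum (64.6 and 28.7 CPM, log2 ratio 1.12, interval 0.18 to 2.28), Prdx5 (495 and 267 CPM, 0.89) and Sod2 (179 and 102 CPM, 0.80). After thinning Prdx5 was at 0.25 and not past the threshold. Prdx1 was lower, at 661 CPM in the niche and 1748 in the distal library (-1.40, interval -1.58 to -1.22), and passed the threshold under all 8 alternatives that gave a value. Its share of cells with a UMI after thinning was 32.8% in the niche and 38.9% in the distal library, with overlapping intervals. Cat was the other lower gene, at 48.5 and 83.6 CPM (-0.78, -1.55 to -0.02). It was past the threshold with an interval that left out 0 under 3 of 6 alternatives. Among oxidase genes Ncf1 was highest at 0.16 and Ncf4 lowest at -0.27, and among supply genes G6pdx was highest at 0.46 (-0.94 to 2.20) and Taldo1 lowest at -0.38 (-0.67 to -0.09). The summed level of 9 interstitial macrophage markers was 1920 CPM in the niche and 110 in the distal cells of this class, with Pf4 and Folr2 at 0 in the latter, and that of 8 neutrophil markers 29.1 and 1858 CPM, with Ly6g and Mmp8 at 0 in the latter, and their part in the ratios was not tested.

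**Figure D5:**
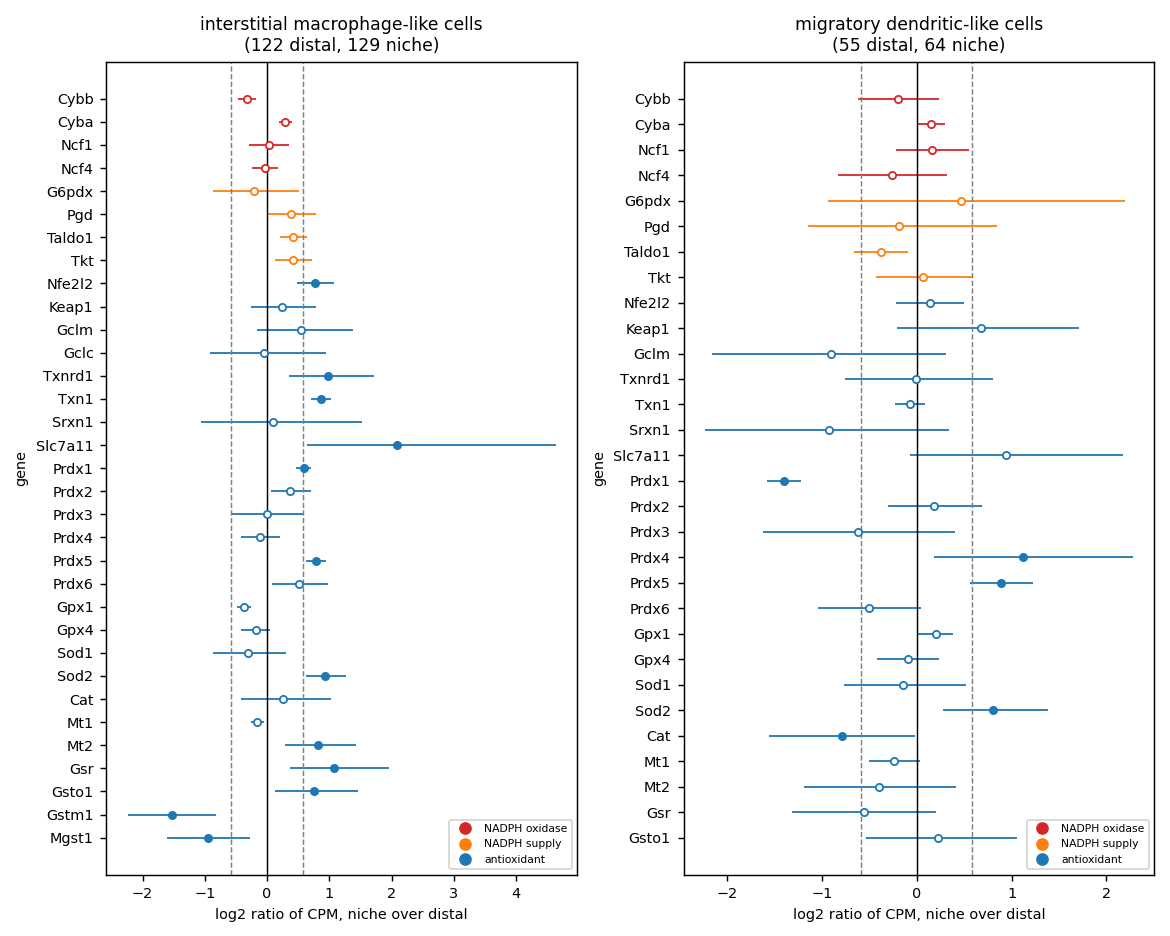
Log2 ratio of CPM, niche over distal, in interstitial macrophage-like (left, 33 genes) and migratory dendritic-like cells (right, 30 genes), with the 95% counting interval, drawn as for the monocyte/macrophage-like class. The axes differ in range. Prdx1 lies at 0.59 on the left and at -1.40 on the right.

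Side by side, the 3 classes share the 2 libraries and so are not independent of each other. Sod2 had log2 ratios of 0.54, 0.94 and 0.80 in monocyte/macrophage-like, interstitial macrophage-like and migratory dendritic-like cells, and Prdx5 0.14, 0.78 and 0.89. Over the 10 classes with at least 20 cells per library, Sod2 was at a higher level in the niche library in 6 and a lower one in 4. Prdx5 was higher in 8 and lower in 2, and Gpx1 and Gpx4 were each higher in 1 and lower in 9. These counts were not read against the threshold.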

How the data were processed

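The deposited matrices hold raw counts of UMIs for each gene in each barcode, which the authors had not normalized. The file headers name software version 3.0.2 for the distal and cellranger 6.0.0 for the niche matrix. Builds mm10 and GRCm38 and the tools RSEM, Bowtie2, Cell Ranger 3.02 and Seurat 4.1.1 are named, without roles, in the submitters' processing notes. The matrices list 30149 and 32285 genes; 29413 shared identifiers hold 99.8% and 99.4% of UMIs. No member gene shares exonic bases with a gene of 1 list only (GENCODE, GRCm38). How reads shared by similar genes, such as the Gstm family, were counted is not given in the sources used here.

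Kept were barcodes with no fewer than 200 genes and no more than 10% of UMIs from mitochondrial genes (scanpy 1.11.5, Python 3.11.15). Scrublet called 0.0755% of cells as doublets and was taken as not having worked; its 5 calls were removed, and clusters with markers of several lineages were kept apart as mixed (215 distal and 271 niche cells), as was a low-UMI cluster set (9 and 336 cells). Both libraries were clustered together without the 34 genes (2000 variable genes, 30 components, 20 neighbours, Leiden resolution 1.0, leidenalg 0.10.2) and named from markers, with thresholds set after the clusters were seen. Proliferating clusters were classes of their own.

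UMIs were summed per class and given as CPM. For log2 ratios 0.5 UMI was added to both sums, and the interval was the exact conditional binomial one. A gene with at least 20 UMIs in the class was called at 1.5-fold or more with an interval that leaves out 0, in classes with at least 50 cells per library. CPM had exact Poisson and shares exact Clopper-Pearson intervals. Intervals for shares and zero limits of 3 UMIs cover counting error only. No p-value was computed, since each group is 1 library. Named were all called genes, the highest and lowest ratio of each group, all oxidase and supply genes across classes, and antioxidant genes with a highest class 2-fold above the next; Sod2, Gpx1, Gpx4, Mgst1, Prdx1, Prdx5, Mt1, Mt2, Txn1, Txnrd1, Nfe2l2, Keap1, Cat, Sod1 and the cluster values were also described after their values were seen. The genes and lists were chosen with earlier results of these data known. The ratio step was tested on simulated counts. Alternatives changed the clustering, cell filters, doublets, scaling, depth and minimum of UMIs. Oxidase genes beyond the 4 named are not reported here.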

Additional observations from a re-analysis of the deposited data

Results flagged for a closer look

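The log2 ratio of Prdx1, niche over distal, was 0.59 in interstitial macrophage-like cells and -1.40 in migratory dendritic-like cells, each with an interval that left out 0. The effects had opposite signs in these classes. The difference between them was not tested, since each class has 1 library per group. In migratory dendritic-like cells, the shares of cells with a Prdx1 UMI after thinning had overlapping intervals between the libraries. The interval of the ratio covers counting error only and not the spread between cells.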

How the results depend on the processing

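No paired analysis was possible because each group is 1 library. Over 14 alternatives, 986 values of single genes were recomputed: 875 were counted as unchanged, 111 as moved, and 0 called values changed sign. A ratio between the libraries was unchanged if it stayed within the interval of the reported value. A level over the next class, which has no interval, was unchanged if its 2-fold call was. The minimum of 100 UMIs changes which genes are kept and not their ratios. Leaving out genes with exon overlaps left out none. Ratios between the libraries under these settings equal the reported ones by construction, and they are part of the counts of alternatives. In monocyte/macrophage-like cells (1 gene higher, 1 lower) the count of higher genes was 0 at resolution 0.6 and after thinning, and 2 at resolution 1.5, with at least 500 genes per cell, with the mean over cells, and in the largest cluster. The count of lower genes was 2 at resolution 1.5 and with at least 500 genes per cell, and 0 after thinning. The oxidase median there (-0.07) was -0.17 with at least 500 genes per cell and -0.16 after thinning. In interstitial macrophage-like cells (10 higher, 2 lower) the higher count was 3 with at most 5% mitochondrial UMIs and 5 with at least 500 genes or after thinning. The lower count was 1 with either of those filters, without the highest 5% of doublet scores and with the mean over cells, and 0 after thinning and with at least 100 UMIs per gene. In migratory dendritic-like cells (3 higher, 2 lower) the lower count was 1 without those doublet scores, after thinning and with at least 100 UMIs, and 4 with the mean over cells. Of the genes 2-fold above the next class, 6 in the distal library, the alternatives gave 6 to 8, and Gclc in stromal-like cells was not past 2-fold after thinning (log2 0.17). Thinned to 1000 UMIs, the share of alveolar macrophage-like cells with a UMI was 94.4% for Cybb, 85.4% for Cyba, 17.7% for Ncf1 and 10.2% for Ncf4, and that of neutrophil-like cells 46.1% for Ncf4. Not run for lack of cells were interstitial macrophage-like cells at resolution 0.6 and migratory dendritic-like cells at resolution 1.5, with at most 5% mitochondrial UMIs and with at least 500 genes per cell. The alternatives for interstitial macrophage-like and migratory dendritic-like cells, and leaving out alveolar macrophage-like cells across classes, were chosen after seeing the data. Depth limits Nqo1, Srxn1, Gclc and Slc7a11 outside neutrophil-like cells.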
